A study of Mus musculus with 9 samples.

Results

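The genes described here are those of the RNA-seq table whose symbols begin as those of small GTPases and of the proteins that bud, sort, tether and fuse transport vesicles do. The rule took symbols that begin with Rab, Arf, Arl, Vps, Snx, Syt, Stx, Snap, Vamp or Trappc, with Syn or Sec before a digit, with Cop before a letter and a digit or the end, and with Ap1, Ap2 or Ap3 before a letter. It found 20 of the 689 genes of the table. There were 4 genes for Rab, 1 each for Arf, Arl, Vps, Snx, Syt, Snap, Trappc, Ap1 and Ap3, 2 for Cop, 5 for Sec, and 0 for Syn, Stx, Vamp and Ap2. The libraries came from frozen hemibrains of male C57BL/6J mice, with 1 mouse per library and 3 libraries per group. Young controls were 5 months old by the labels, came from JAX and ate control diet for 6 weeks. Aged controls were 24 months old, came from NIA and also ate control diet for 6 weeks. Aged-repopulated mice were 24 months old and came from NIA. They received 2 weeks of diet with PLX5622, an inhibitor of the receptor CSF1R on which microglia depend for survival, and then 4 weeks of control diet to let microglia return. Young and aged mice came from different suppliers, so a difference by age cannot be told apart from a difference by supplier. Levels are given in RPKM, read numbers scaled by transcript length and by the mapped reads of the library, so they can be compared between genes.

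Cells move membrane and cargo between compartments in vesicles. Small GTPases of the Rab and Arf families switch between a GDP-bound and a GTP-bound state and, when bound to GTP, recruit coats, tethers and motors to a given membrane. COPII carries cargo out of the endoplasmic reticulum, COPI returns it from the Golgi, adaptor complexes sort it at the trans-Golgi network and endosomes, and tethers and SNAREs bring the vesicle to its target. In neurons the same machinery supplies axons and dendrites with membrane proteins and recycles receptors and synaptic vesicles. The symbol rule also takes genes with other roles. *Cops3* encodes a subunit of the COP9 signalosome, which acts on ubiquitin ligases, *Snapc1* a subunit of the complex that activates transcription of small nuclear RNA genes, *Sec11a* a catalytic subunit of signal peptidase and *Sec14l2* a lipid-binding protein.

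The sequence before the transcription start is shown for *Sec23a* and *Copg2*, which were lower in the aged controls under every scaling of the libraries described here, for *Rabgef1*, whose higher level in the aged controls was called without any one library, and for *Snx30*, the gene called after repopulation. Each line gives the 250 bases before the start in RefSeq on GRCm38.p6, 5′ to 3′ on the strand of the gene, and *Rabgef1* is shown for the first of 3 starts listed. The gene coordinates given below come from another annotation, GENCODE. There *Snx30* begins some way after the end of its window, and *Rabgef1* begins inside its window. Capitals mark TGACG, which is part of the cyclic AMP response element, the GC box GGGCGG and the CCAAT box CCAAT, each on either strand.
Sec23a, chr12:59012018-59012267, minus strand: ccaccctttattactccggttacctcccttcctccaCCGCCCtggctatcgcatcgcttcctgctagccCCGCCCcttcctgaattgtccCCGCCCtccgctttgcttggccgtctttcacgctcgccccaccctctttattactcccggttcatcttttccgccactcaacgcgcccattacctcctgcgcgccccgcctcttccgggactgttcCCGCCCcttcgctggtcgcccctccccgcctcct
Copg2, chr6:30896795-30897044, minus strand: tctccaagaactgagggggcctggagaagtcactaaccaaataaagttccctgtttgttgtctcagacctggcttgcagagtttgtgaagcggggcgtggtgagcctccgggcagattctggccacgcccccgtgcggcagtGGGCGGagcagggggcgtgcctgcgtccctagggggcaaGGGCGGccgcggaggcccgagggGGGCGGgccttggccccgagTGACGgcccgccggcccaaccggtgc
Rabgef1, chr5:130171569-130171818, plus strand: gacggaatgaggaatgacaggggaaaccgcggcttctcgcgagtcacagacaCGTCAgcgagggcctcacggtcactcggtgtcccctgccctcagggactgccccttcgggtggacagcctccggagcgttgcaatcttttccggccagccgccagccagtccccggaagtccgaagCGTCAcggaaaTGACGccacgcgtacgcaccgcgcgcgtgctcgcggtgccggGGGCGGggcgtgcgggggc
Snx30, chr4:59805400-59805649, plus strand: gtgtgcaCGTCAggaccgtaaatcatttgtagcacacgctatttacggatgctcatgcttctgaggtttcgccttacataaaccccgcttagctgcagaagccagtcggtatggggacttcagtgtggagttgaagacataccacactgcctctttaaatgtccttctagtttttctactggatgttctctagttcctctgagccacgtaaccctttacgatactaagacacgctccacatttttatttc
RefSeq's promoter table held 16 of the 20 genes. With 1 window counted per gene, TGACG stood in 8 of these 16 promoters and in 17.6% of 27018 promoters of the same length, GGGCGG in 10 of 16 and 32.7%, and CCAAT in 5 of 16 and 34.2%. The E-box CACGTG stood in 0 of 16 and 5.93%. *Sec23a* has 4 GC boxes in this window and *Copg2* has 3, and neither window holds CCAAT. These matches describe letters in the window and not binding.

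The table holds the genes that the authors' model had already called on the same 9 libraries, so the 20 genes are not all trafficking genes of the brain, and the p-values below describe a list that was selected on these libraries. Summed RPKM of the table was from 22242 to 22330 in the young controls, from 23629 to 24853 in the aged controls and from 22861 to 23632 in the aged-repopulated mice, and the medians of the aged control libraries stood 0.11 above those of the young ones on the log2(RPKM + 1) scale. This shift was -0.054 for aged-repopulated against aged control brains and 0.053 against young ones. Read depth is unknown. The table lists 4 of 15 neuronal markers fixed for the check of the tissue, 1 of 12 for astrocytes, 1 of 14 for oligodendrocytes, 8 of 16 for microglia, 3 of 12 for endothelial cells and pericytes and 0 of 8 for choroid plexus and ependyma, and no listed marker was at 0. The neuronal markers summed to between 676 and 700.3 RPKM in young controls, to between 736 and 802 in aged controls and to between 721 and 731 in aged-repopulated brains. The microglial markers, among them the C1q subunits, summed to between 155 and 161, between 229 and 272, and between 219 and 318 RPKM in the same order. *Glul*, the astrocyte marker, was between 401 and 417, between 446 and 482 and between 441 and 481 RPKM, and *Opalin*, the oligodendrocyte marker, between 15.5 and 19.0, between 10.9 and 13.2 and between 12.1 and 19.2 RPKM. The endothelial markers summed to between 55.9 and 56.1, between 46.6 and 53.7 and between 41.9 and 51.5 RPKM. Within a list the markers did not all move one way: with age 3 neuronal markers were called higher and *Map2* lower (log2 difference -0.12), and of the endothelial markers *Ly6c1* was called higher (0.37) and *Itm2a* lower (-0.46). Of the microglial markers 7 of 8 were called higher with age, against 46.3% of the table. In aged-repopulated against young control brains 7 were called higher (4.21% of the table), and 0 were called with repopulation (8.71%). With repopulation 1 neuronal and 1 endothelial marker were called lower (5.81% of the table). Against young controls 1 endothelial marker was called lower (0.726%). The part of these markers in the results below was not tested. In a hemibrain, fewer cells of a type and less RNA per cell cannot be told apart.

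The 20 genes varied little between libraries, and the study had tested only genes above a threshold of RPKM. The mean over the 9 libraries was from 9.83 RPKM for *Arl4a* to 34.6 RPKM for *Ap3d1*, with a median of 16.4 RPKM against 19.7 for the table. The highest library exceeded the lowest by a factor between 1.09 for *Copg2* and 1.26 for *Rabl2*, with a median of 1.15 over the 20 genes and 1.20 over the table. In order of mean level *Ap3d1* and *Cops3* stood first, then *Rab28*, *Copg2*, *Sec23a* and *Trappc1*, and *Rabl2*, *Sytl2*, *Snx30* and *Arl4a* stood last. *Rab28* and *Copg2* had means of 27.42 RPKM each and their libraries overlapped.

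**Figure D1:**
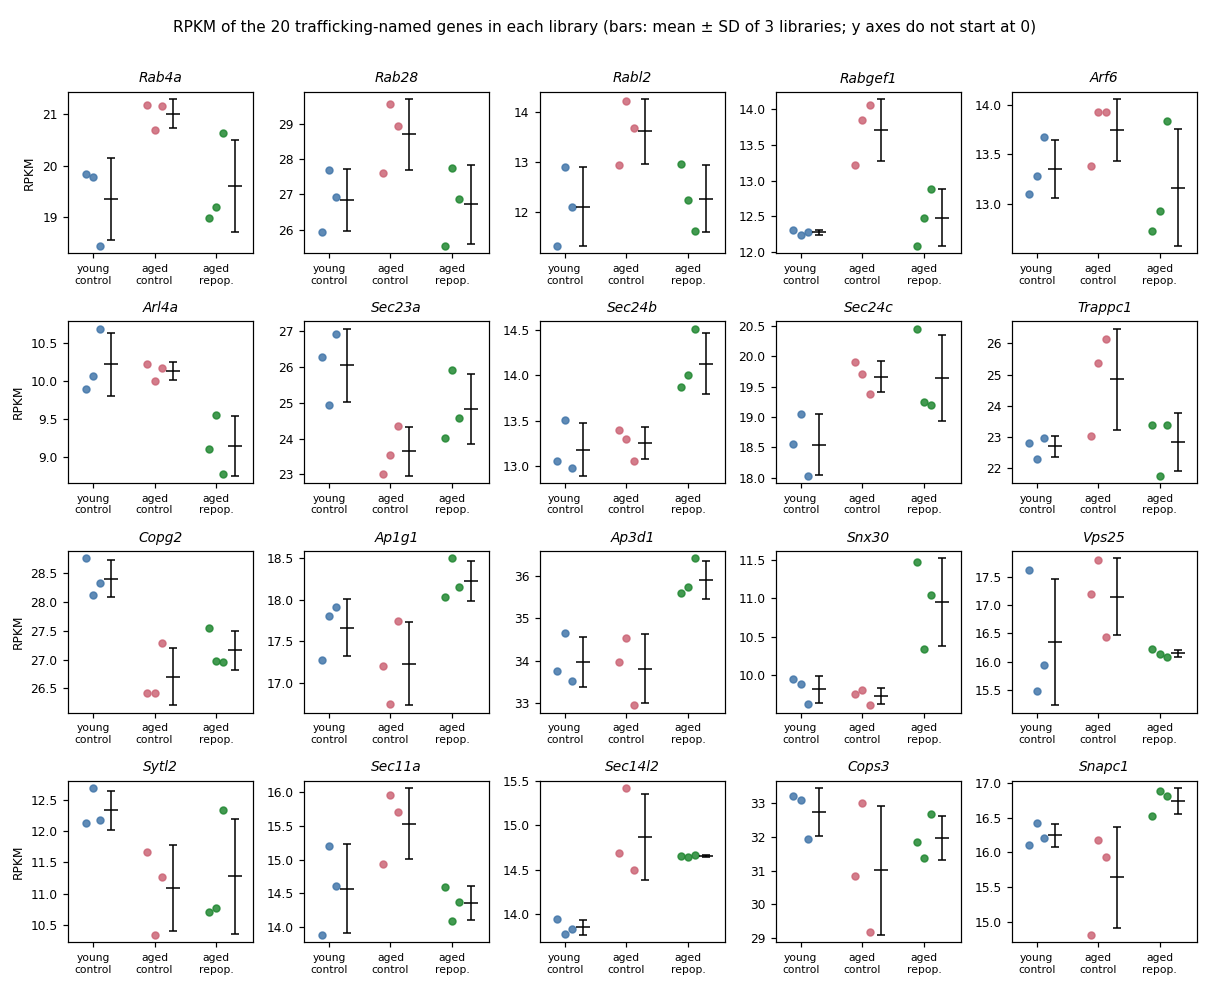
RPKM (vertical axes, which do not start at 0) of the 20 genes in each library, by group (horizontal axes). Points are libraries and bars are the mean ± SD of 3 libraries. In *Sec23a* and *Copg2* the aged controls lie below the young controls, in *Rabgef1*, *Rab4a* and *Rabl2* they lie above them, and in *Snx30* the aged-repopulated libraries lie above both control groups.

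Whether these genes differ with age was asked by setting aged controls against young controls. The aged controls had less mRNA of *Sec23a* and *Copg2*, coat subunits of the COPII and COPI vesicles that run between the endoplasmic reticulum and the Golgi. They had more of *Rabl2*, *Rabgef1*, *Rab4a* and *Trappc1*, GTPases and activators of GTPases, and of *Sec14l2*. The changes were from -9.27% of the young mean for *Sec23a* to 12.5% for *Rabl2*. The 2 falls held under every scaling of the libraries described below, and among the rises *Rab4a*, *Trappc1*, *Rabl2* and *Sec14l2* turned negative under at least 1 of them. These scalings were computed from the genes of the table alone, which the authors' model had called. They lowered the median difference of the table, which was 0.096 as deposited, to between -0.015 and 0.012. They moved both falls further from 0, so that the falls held under them is not a test of the falls. Of the 20 genes, limma called 7 (adjusted p below 0.05 over the 689 genes), 5 higher and 2 lower. This is 35% against 62.8% of the table, where higher calls made up 46.3% and lower calls 16.5%. An unadjusted p below 0.05 was found for 9 of the 20 genes and 69.5% of the table. Without P09 1 gene was called (39% of the table), without P07 2 (41.9%), without P11 2 (43%) and without P12 4 (51.7%). The median log2 difference was 0.023 for the 20 genes and 0.096 for the table. Young and aged libraries were separated without overlap in 9 of the 20 genes and 70.1% of the table.

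*Sec23a* encodes the COPII subunit that stimulates GTP hydrolysis by SAR1, and lies on chromosome 12 of GRCm38 from 58958383 to 59012017, on the minus strand. It stood at 26.3, 24.9 and 26.9 RPKM in the young controls, at 23.0, 23.5 and 24.4 RPKM in the aged controls, and at 24.0, 25.9 and 24.6 RPKM in the aged-repopulated brains. Every aged control lay below every young control, and the aged-repopulated libraries overlapped both groups. With age it fell by 0.13 on the log2 scale with a standard error of 0.042 (adjusted p = 0.021 from limma, and from 0.0026 to 0.185 under 21 alternatives). Its partners in the coat are the SEC24 proteins, which bind cargo. *Sec24b* was 13.2 ± 0.29 RPKM (SD, n = 3) in young and 13.3 ± 0.18 (SD, n = 3) in aged controls, with an interval of the log2 difference from -0.064 to 0.078. *Sec24c* was 18.5 ± 0.51 RPKM in young and 19.7 ± 0.26 in aged controls, a log2 difference of 0.081 that did not pass the adjusted threshold (adjusted p = 0.069 from limma) although the libraries did not overlap.

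*Copg2* encodes the gamma-2 subunit of coatomer, the COPI coat, and lies on chromosome 6 from 30747554 to 30896794, on the minus strand. It stood at 28.8, 28.1 and 28.3 RPKM in the young controls, at 26.4, 26.4 and 27.3 RPKM in the aged controls, and at 27.5, 27.0 and 27.0 RPKM in the aged-repopulated brains. The young controls were the highest libraries and the other 2 groups overlapped. With age it fell by 0.086 on the log2 scale with a standard error of 0.029 (adjusted p = 0.029 from limma, and from 0.0017 to 0.262 under 21 alternatives). The calls of *Sec23a* and *Copg2* were each lost without P07, P09, P10 or P11, with adjusted p values from 0.053 to 0.074 for *Sec23a* and from 0.064 to 0.094 for *Copg2*. In the annotation 17.8% of the exonic bases of *Copg2* overlap *Mest* and 8.90% of those of *Sec23a* overlap the antisense gene *Gm17529*, both on the opposite strand. Whether the counting used strand is not given in the sources used here.

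Among the GTPases, *Rab4a* directs fast recycling from early endosomes back to the plasma membrane. It stood at 19.8, 19.8 and 18.4 RPKM in young controls, at 21.2, 20.7 and 21.2 RPKM in aged controls and at 19.0, 19.2 and 20.6 RPKM in aged-repopulated brains. All aged controls were above the young controls, and the aged-repopulated libraries overlapped the young ones. It rose with age by 0.11 on the log2 scale with a standard error of 0.042 (adjusted p = 0.037 from limma).

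*Rabgef1* encodes RABEX-5, the exchange factor that loads RAB5 with GTP on early endosomes, and lies on chromosome 5 from 130171798 to 130214342. It stood at 12.3, 12.2 and 12.3 RPKM in young controls, at 13.2, 13.8 and 14.1 RPKM in aged controls and at 12.1, 12.5 and 12.9 RPKM in aged-repopulated brains. The aged controls were the 3 highest of the 9 libraries. It rose with age by 0.15 on the log2 scale with a standard error of 0.035 (adjusted p = 0.010 from limma, and from 0.0071 to 0.466 under 20 alternatives), and this call was made without each of the 9 libraries in turn.

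*Rabl2*, a Rab-like GTPase that binds the transport machinery of cilia, stood at 11.3, 12.9 and 12.1 RPKM in young controls, at 12.9, 14.2 and 13.7 RPKM in aged controls and at 12.9, 12.2 and 11.6 RPKM in aged-repopulated brains. The lowest aged control, at 12.93 RPKM, was just above the highest young control, at 12.89 RPKM. It rose with age by 0.16 on the log2 scale with a standard error of 0.055 (adjusted p = 0.031 from limma). *Rab28*, a GTPase that is also linked to cilia and photoreceptors, was 26.8 ± 0.88 RPKM (SD, n = 3) in young and 28.7 ± 0.999 (SD, n = 3) in aged controls, with an adjusted p of 0.076 from limma.

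*Trappc1* encodes a core subunit of the TRAPP tethers, which also act as exchange factors for Rab GTPases at the Golgi. It stood at 22.8, 22.3 and 23.0 RPKM in young controls, at 23.0, 25.4 and 26.1 RPKM in aged controls and at 23.4, 21.8 and 23.4 RPKM in aged-repopulated brains. P10 was the aged control closest to the young controls, and the other two aged controls were the highest libraries. It rose with age by 0.12 on the log2 scale with a standard error of 0.049 (adjusted p = 0.049 from limma), and the log2 difference was 0.18 without P10.

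*Sec14l2* stood at 13.9, 13.8 and 13.8 RPKM in young controls, at 14.7, 15.4 and 14.5 RPKM in aged controls and at 14.7, 14.6 and 14.7 RPKM in aged-repopulated brains. Both aged groups were above the young controls in every library. It rose with age by 0.095 on the log2 scale with a standard error of 0.031 (adjusted p = 0.025 from limma). Calls with age were also lost for *Rab4a*, *Rabl2*, *Sec14l2* and *Trappc1* when any of several libraries was left out. Their log2 differences stayed positive with each library left out, from 0.070 for *Sec14l2* to 0.20 for *Rabl2*. From 39.0% to 63.6% of the table was called in these fits. *Rab4a* was not called without P07, P09, P10, P11 or P12 (adjusted p from 0.054 to 0.134), *Rabl2* without P07, P09, P11 or P12 (from 0.071 to 0.118), *Sec14l2* without P07, P08, P09 or P11 (from 0.058 to 0.077), and *Trappc1* without P01, P03, P07, P08, P09, P11 or P12 (from 0.057 to 0.161).

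The other 10 genes had log2 differences from -0.14 to 0.087 and none was called as deposited. *Sytl2*, an effector that tethers RAB27 vesicles to the plasma membrane, had the lowest difference. It was 12.3 ± 0.31 RPKM (SD, n = 3) in young and 11.1 ± 0.68 (SD, n = 3) in aged controls without overlap, with an adjusted p of 0.053 from limma. *Arf6*, the Arf of the plasma membrane and of recycling endosomes, had an interval of the log2 difference from -0.046 to 0.12, and *Arl4a*, an Arf-like GTPase of the plasma membrane, one from -0.099 to 0.077. *Ap1g1*, the gamma subunit of the AP-1 adaptor of the trans-Golgi network, and *Ap3d1*, the delta subunit of the AP-3 adaptor that sorts toward lysosome-related organelles, had intervals from -0.11 to 0.039 and from -0.077 to 0.063. *Snx30*, a sorting nexin that binds endosomal membrane, had one from -0.098 to 0.073. *Vps25*, a subunit of the ESCRT-II complex that sorts ubiquitinated cargo, had one from -0.041 to 0.17, and 67.2% of its exonic bases overlap *Ramp2* on the same strand. *Sec11a*, *Cops3* and *Snapc1* had log2 differences of 0.087, -0.078 and -0.053 (0.077, 0.143 and 0.217 as adjusted p from limma).

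The direction of the calls with age depended on the scaling of the libraries, in the 20 genes and in the whole table. RPKM was already scaled to the mapped reads of each library. The 4 other scalings were computed from the genes of the table alone, which were selected as changed, and bring their median difference near 0. A change of sign under them therefore does not show which direction is right. As deposited, 319 genes of the table were called higher and 114 lower. After centring each library on its median, 9 of the 20 genes were called and all 9 were lower in aged controls. This compares with 42.5% of the table, 78 genes higher and 215 lower. With quantile normalization 6 were called, all lower, against 40.2% (88 higher and 189 lower). With a correction of each library for its trend on transcript length 8 were called, all lower, against 23% of 686 genes (63 higher and 95 lower). With a correction for GC content 1 was called higher and 5 lower, against 42.3% (108 higher and 182 lower). *Sec23a* and *Copg2* were called lower in each of these 4 fits, with log2 differences from -0.24 to -0.14 and from -0.19 to -0.11. *Sytl2*, which was not called as deposited, was also called lower in all 4, with log2 differences from -0.25 to -0.18. *Cops3* was called lower with centring (-0.19), quantile normalization (-0.17) and the length correction (-0.27). *Rabgef1* was higher in all 4, by 0.040 with centring, 0.087 with quantile normalization, 0.034 with the length correction and 0.10 with the GC correction, and was called in the last of them. *Rab4a* was at 0.006 with centring and turned negative with the length correction (-0.10), *Trappc1* was at 0.016 and -0.16 in these fits, and in the latter it was called lower. *Rabl2* was at 0.050 and -0.038, and *Sec14l2* at -0.012 and -0.029. With adjustment over the number of genes that the study tested in place of the table, 0 of the 20 genes and 1.02% of the table were called in limma, where 9 of the 20 had passed before adjustment.

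**Figure D2:**
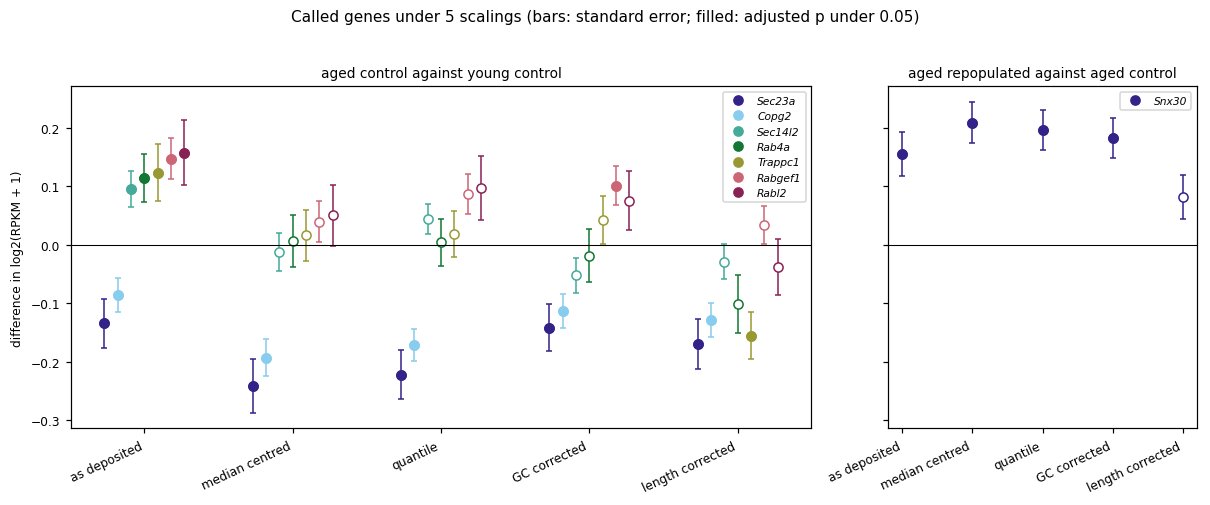
Difference in log2(RPKM + 1) (vertical axis) of the genes called with age (left) and with repopulation (right) under 5 scalings of the libraries (horizontal axis). Points are fitted differences, bars are standard errors, and filled points have an adjusted p under 0.05. *Sec23a* and *Copg2* stay below 0 and filled throughout, and the 5 genes that were higher with age as deposited move toward or below 0 with centring and with the length correction.

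Whether these genes differ after microglial replacement was asked by setting aged-repopulated against aged control brains. *Snx30* was higher after repopulation and was the single call among the 20 genes, which is 5% against 8.71% of the table (limma, Benjamini-Hochberg), or against 2.9% for higher and 5.81% for lower calls. Before adjustment 12 of the 20 genes and 39.3% of the table had a p below 0.05. Among the genes not called, the difference from the aged control mean was 5.80% for *Ap1g1*, 6.21% for *Ap3d1*, 6.64% for *Sec24b*, 5.06% for *Sec23a* and -0.151% for *Sec24c*, and -9.88% for *Rabl2*, -9.71% for *Arl4a*, -8.93% for *Rabgef1* and -8.09% for *Trappc1*. The median log2 difference was -0.011 for the 20 genes and -0.047 for the table. Aged control and aged-repopulated libraries were separated without overlap in 10 of the 20 genes and 37.4% of the table.

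*Snx30* lies on chromosome 4 from 59805840 to 59904737, on the plus strand. It stood at 9.95, 9.88 and 9.62 RPKM in young controls, at 9.75, 9.81 and 9.61 RPKM in aged controls, and at 11.5, 10.3 and 11.0 RPKM in aged-repopulated brains. The 6 control libraries lay within 9.61 and 9.95 RPKM and all aged-repopulated libraries lay above them. After repopulation it rose from 9.72 ± 0.11 RPKM (SD, n = 3) to 10.95 ± 0.57 (SD, n = 3), by 0.16 on the log2 scale with a standard error of 0.038 (adjusted p = 0.045 from limma, and from 0.014 to 0.403 under 20 alternatives). It was not called without P01, P03, P07, P08, P09, P11 or P12, with adjusted p values from 0.066 to 0.102. In these fits from 0.290% to 3.63% of the table was called, against 8.71% with all libraries. Its longest transcript has 7314 nucleotides and is the longest of the 20. With the correction for transcript length the log2 difference was 0.082 and was not called, and with centring it was 0.21 and called. Of its exonic bases 3.08% overlap the pseudogene *Gm12543* on the same strand.

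*Ap3d1*, *Ap1g1*, *Sec24b* and *Snapc1* were higher in aged-repopulated than in aged control brains under each of the 5 scalings, without passing the adjusted threshold as deposited. *Ap3d1* was 35.6, 35.7 and 36.4 RPKM after repopulation against 34.0, 34.5 and 32.9 RPKM in aged controls and 33.8, 34.6 and 33.5 RPKM in young controls. Its aged-repopulated libraries were above all 6 controls, with a log2 difference of 0.085 against aged controls (adjusted p = 0.092 from limma). *Ap1g1* was 18.2 ± 0.24 RPKM (SD, n = 3) after repopulation and 17.2 ± 0.50 in aged controls (adjusted p = 0.114 from limma), and *Sec24b* was 14.1 ± 0.34 and 13.3 ± 0.18 RPKM (adjusted p = 0.092 from limma). In both, the aged-repopulated libraries were above all controls. *Snapc1* was 16.7 ± 0.19 and 15.6 ± 0.73 RPKM (adjusted p = 0.0998 from limma). After centring, *Ap1g1*, *Ap3d1*, *Sec24b* and *Snapc1* were called higher together with *Snx30*, which is 5 of 20 against 19.3% of the table (111 genes higher and 22 lower). With the length correction 0 of the 20 genes were called in limma, 3 had an unadjusted p below 0.05, and 2.33% of the table was called. With quantile normalization 1 was called (*Snx30*, against 10.6% of the table, 52 genes higher and 21 lower). With the GC correction 4 were called, *Snx30*, *Ap3d1* and *Sec24b* higher and *Arl4a* lower, against 10.1% (45 higher and 24 lower).

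*Sec23a* and *Copg2*, the coat genes that fell with age, had log2 differences after repopulation of 0.068 (interval from -0.025 to 0.16) and 0.023 (interval from -0.042 to 0.089), and limma gave them adjusted p values of 0.225 and 0.532. *Sec24c* and *Sec14l2* had differences of -0.0026 and -0.019.

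No Rab, Arf, Arl or Trappc gene passed the adjusted threshold with repopulation, where 8.71% of the table did. The log2 differences of these 7 genes were negative as deposited, as were those of 427 of the 689 genes of the table. With the length correction those of *Trappc1* (0.002), *Rab28* (0.012), *Rab4a* (0.021) and *Arf6* (0.056, and 0.044 with the GC correction) were not negative. *Rabgef1* was 12.5 ± 0.40 RPKM (SD, n = 3) after repopulation and 13.7 ± 0.43 in aged controls without overlap, a log2 difference of -0.13 (adjusted p = 0.053 from limma). *Arl4a* stood at 9.11, 9.55 and 8.77 RPKM after repopulation, at 10.2, 9.99 and 10.2 RPKM in aged controls and at 9.90, 10.1 and 10.7 RPKM in young controls. Its aged-repopulated libraries were below all 6 controls, with a log2 difference of -0.13 against aged controls (adjusted p = 0.059 from limma). *Rabl2*, *Trappc1*, *Rab28* and *Rab4a* had log2 differences of -0.14, -0.12, -0.099 and -0.096, and their adjusted p in limma was from 0.103 to 0.119. *Arf6* had one of -0.058 (adjusted p = 0.248). Without the aged control P10, *Rabgef1* and *Trappc1* were called lower, with log2 differences of -0.15 and -0.17, and 3 of the 20 genes were called in all, against 20.5% of the table. *Sec11a* and *Vps25* stood at -0.11 and -0.081 on this scale without being called, and *Cops3* and *Sytl2* at 0.044 and 0.021.

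**Figure D3:**
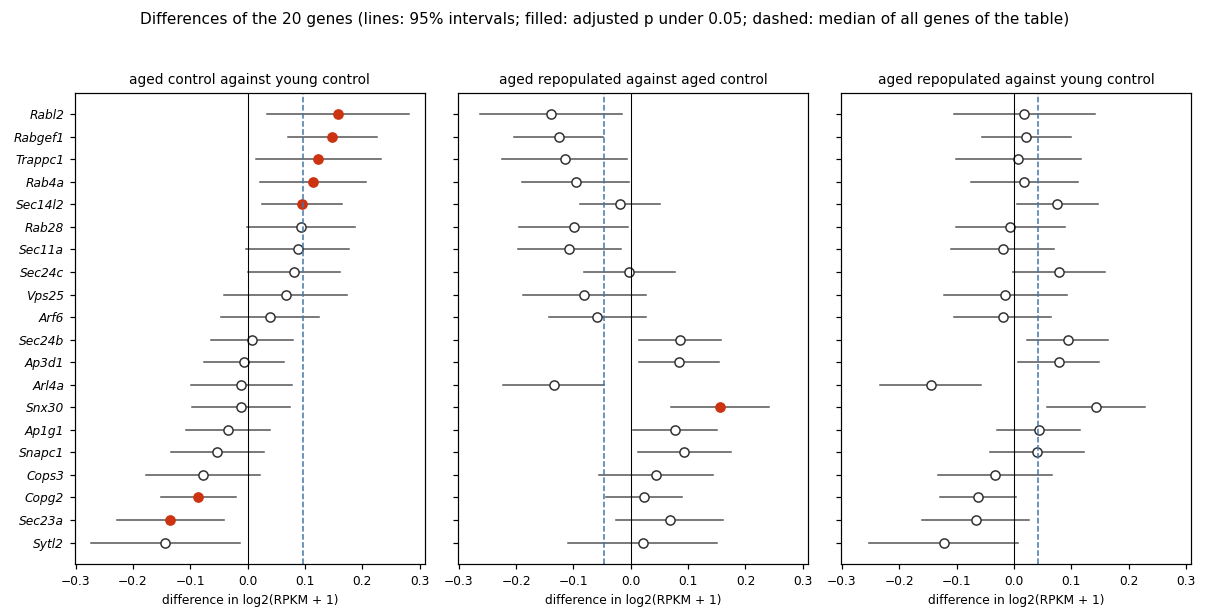
Difference in log2(RPKM + 1) (horizontal axes) of the 20 genes, ordered by their difference with age, in the 3 comparisons. Points are fitted differences, lines are 95% intervals, filled points have an adjusted p under 0.05 and the dashed line is the median of the table. *Sec23a*, *Copg2* and 5 other genes are filled with age, *Snx30* with repopulation, and none in the comparison of aged-repopulated with young control brains.

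How far the aged-repopulated brain stood from the young brain was asked in the third comparison, which shares its libraries with the other two. 0 of the 20 genes were called by limma (0% against 4.93% of the table, of which 4.21% higher and 0.726% lower), while 5 passed before adjustment against 28.4% of the table. With limma-trend 0 were called (5.66% of the table) and 6 passed before adjustment. The log2 differences were from -0.15 to 0.14 with a median of 0.013, against 0.042 for the table. *Snx30* was higher than in young controls by 0.14 (adjusted p = 0.058 from limma) and *Arl4a* stood at -0.15 (adjusted p = 0.062 from limma), and neither overlapped the young controls. Both were called without the aged-repopulated library P02, at 0.18 and -0.17, when 8.56% of the table was called. *Rabl2*, *Rabgef1*, *Rab4a* and *Trappc1* had log2 differences between 0.0079 and 0.022, and the widest of their intervals was that of *Rabl2*, from -0.11 to 0.14. *Sec23a* and *Copg2* were at -0.067 (interval from -0.16 to 0.027) and -0.062 (interval from -0.13 to 0.0035), and *Sec14l2* at 0.076 (interval from 0.0060 to 0.15). In 9 of the 20 genes the libraries did not overlap, against 42.7% of the table. With the length correction 4 of the 20 genes were called, 1 higher (*Snx30*) and 3 lower (*Arl4a*, *Sec11a* and *Trappc1*), against 10.3% of the table (26 genes higher and 45 lower). *Arl4a* alone was called, as lower, with centring (8.85% of the table, 23 higher and 38 lower) and with quantile normalization (6.24%, 18 higher and 25 lower). With the GC correction 0 were called in limma (7.73% of the table), where 5 passed before adjustment.

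The 20 genes differed in transcript length, and the differences moved with it. The longest annotated transcript ran from 759 nucleotides for *Trappc1* to 7314 for *Snx30*, with a median of 3269 against 3178.5 for the table. Of the 10 genes with the shorter transcripts, from 759 to 2828 nucleotides, 9 were higher in aged than in young controls and 9 were lower after repopulation than in aged controls. These 10 include *Arf6* and the 4 Rab genes. The exception in both was *Cops3*. Of the 689 genes of the table, 467 were higher with age and 427 were lower with repopulation. Of the 10 genes with the longer transcripts, from 3710 to 7314 nucleotides, 8 were lower with age and 8 were higher with repopulation. With age the exceptions were *Sec24b* and *Sec24c*, and with repopulation *Arl4a* and *Sec24c*. Across the 20 genes, which share the same libraries and are not independent replicates, Spearman's rho between length and log2 difference was -0.57 with age and 0.77 with repopulation. Across 686 genes of the table it was -0.66 and 0.65. Between aged-repopulated and young control brains it was 0.45 across the 20 genes and -0.31 across the table, of opposite sign. These comparisons share libraries, and the aged controls enter those with age and with repopulation with opposite signs. The opposite trends with length in these comparisons are therefore not independent results. The part of transcript length in the differences between groups was not tested beyond the correction given above.

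**Figure D4:**
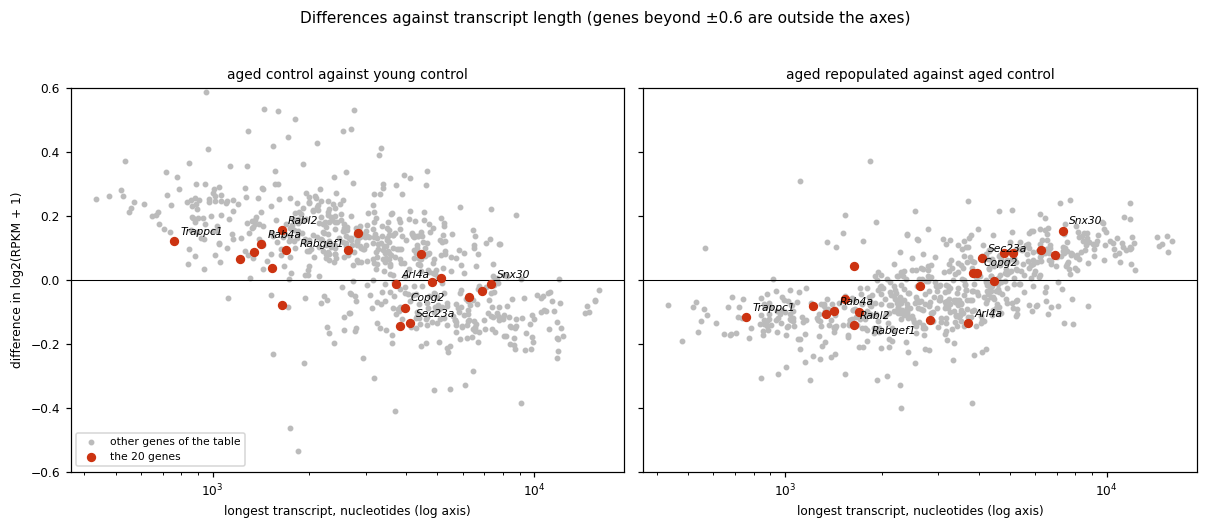
Difference in log2(RPKM + 1) (vertical axis) against the length of the longest annotated transcript in nucleotides (horizontal log axis), for aged against young controls (left) and aged-repopulated against aged controls (right). Red points are the 20 genes and grey points the other genes of the table. The red points run downward with length on the left (rho -0.57) and upward on the right (rho 0.77), as the grey ones do.

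Other trafficking genes, which the symbol rule does not take, were read from a list of 331 symbols for SNARE regulators, synaptic vesicle proteins, endocytosis, GTPase regulators, Golgi and tether proteins and endosomal proteins, and the table held 28 of them. With age 11 of the 28 were called, 7 higher and 4 lower (39.3%, against 62.8% of the table), with a median log2 difference of 0.015. The 3 largest rises were in *Use1*, a SNARE of the endoplasmic reticulum, from 28.2 ± 0.57 to 34.2 ± 2.20 RPKM (SD, n = 3), in *Lamp2*, a lysosomal membrane protein, from 17.5 ± 0.70 to 20.4 ± 1.02 RPKM, and in *Chmp2a*, a subunit of ESCRT-III, from 53.9 ± 1.08 to 61.0 ± 3.87 RPKM. The 3 largest falls were in *Sv2c*, a synaptic vesicle glycoprotein, from 11.8 ± 1.15 to 8.76 ± 0.68 RPKM, in *Stam*, an endosomal sorting adaptor, from 18.0 ± 0.37 to 16.3 ± 0.41 RPKM, and in *Cltc*, the clathrin heavy chain, from 114.9 ± 3.11 to 105.1 ± 1.5001 RPKM. After centring, 1 was called higher and 14 lower (53.6%, against 42.5% of the table, where 78 genes were higher and 215 lower), and 7 of the 28 were called without P07 (25%, against 41.9%).

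With repopulation 3 of the 28 genes were called, all 3 higher (10.7%, against 8.71% of the table, 2.9% higher and 5.81% lower). They were *Iqsec1*, an exchange factor for ARF6, from 34.9 ± 1.798 to 39.4 ± 0.76 RPKM (SD, n = 3), *Bicd2*, an adaptor between RAB6 vesicles and dynein, from 14.7 ± 0.33 to 16.1 ± 0.57 RPKM, and *Stam*, from 16.3 ± 0.41 to 17.9 ± 0.35 RPKM. Their adjusted p values were 0.045, 0.0492 and 0.0499 from limma. Without P02, P03, P07, P08, P09, P11 or P12, 0 of the 28 were called, against from 0.290% to 3.05% of the table. Between aged-repopulated and young control brains *Lamp2* and *Tbc1d9b*, a gene of the family of Rab GTPase-activating proteins, were called higher, by log2 differences of 0.21 (adjusted p = 0.045) and 0.17 (adjusted p = 0.018). These are 7.14% of the 28 genes, against 4.93% of the table called and 4.21% called higher. Without P01, P07, P08 or P09, 0 of the 28 were called, against from 1.60% to 3.92% of the table.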

How the data were processed

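The analysis used 9 hemibrain RNA-seq libraries, 3 per group. The labels give each library a number of its own, so no pairing was used. Per the labels and the study's methods, the authors called bases with CASAVA 1.8.2, mapped them with ELAND on mm10, derived RPKM values and deposited the RPKM of the 689 genes that their linear model called. The deposited table also holds the authors' F and t scores and p-values, which were not used. The counting step, its use of strand and the handling of shared reads are not given in the sources used here. No value column was left unmapped (0 columns). Steps of whole reads were searched in 346 genes under 20 RPKM and not found (best mean cosine from 0.132 to 0.177, where perfect steps give 1), so depth is unknown and error comes from the 3 mice of each group.

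From RPKM, a linear model of log2(RPKM + 1) was fitted to all 689 genes and 9 libraries (limma 3.58.1 under R 4.3.3), two-sided, with Benjamini-Hochberg adjustment over the 689 genes at 0.05. The study had tested only genes above a threshold of RPKM, and no further filter on low values was used. The added 1 shrinks the differences of weakly expressed genes. Transcript length and GC content came from the longest basic protein-coding transcript of GENCODE M21 (GRCm38, which is mm10) for 686 of 689 symbols, 19 of them through an older symbol, and coordinates of the 20 genes from the same annotation. Of 50-base stretches of their longest transcripts, 10 of *Snx30* and none of the other genes occurred in genes elsewhere. Loess corrections used a span of 0.75. The code was tested on simulated data. Figures used Python 3.11.15, pandas 2.3.3 and matplotlib 3.10.9.

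The genes and lists were chosen with earlier results of these data known. All 20 genes are named. Values in every library are given for genes called in a comparison with aged-repopulated brains and for the 5 largest rises and falls called with age, and, chosen after their values were seen, for *Ap3d1* and *Arl4a*. Of the further trafficking genes, the 3 largest rises and falls called in each comparison are named. The alternatives were a pseudocount of 0.1 or 10, untransformed RPKM, 4 other scalings, a minimum mean of 20 RPKM, a fit of the groups compared, no variance moderation, adjustment over the genes the study tested, limma-trend, and each library left out in turn.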

Additional observations from a re-analysis of the deposited data

How the results depend on the processing

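The counts rest on small differences and on few libraries. Of the 20 genes, the number called with age was 3 with a minimum mean of 20 RPKM (6 of the genes tested, 73.6% of the table called), 4 without variance moderation (56.5% of the table) and 0 with adjustment over the genes the study tested (9 before adjustment, 1.02% of the table). The range was between 1 and 7 with a library left out (from 39.0% to 63.6% of the table), at 1 without P09, 2 without P07 or P11 and 4 without P12. With repopulation it was 5 with centring, 4 with the GC correction, and 0 with a pseudocount of 10 (7.84% of the table), untransformed RPKM (3.05%), the length correction (2.33%), the minimum mean (9.09%), the 2 groups compared (0.726%), no moderation (0.726%) and the wider adjustment (0.145%), and between 0 and 3 with a library left out (from 0.290% to 20.5%). Against young controls aged-repopulated brains gave 1 with centring, 1 with quantile normalization, 4 with the length correction, and between 0 and 2 with a library left out (from 1.60% to 8.56% of the table).

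Of the 28 further genes, the number called with age was 4 with the length correction (23.0% of the table) and 0 with the wider adjustment (1.02%). It was between 7 and 13 with a library left out (from 39.0% to 63.6% of the table). The minimum mean kept 13 of the 28 genes, and 7 of these were called (53.8%, against 73.6% of the table). With repopulation the number called was 1 with a pseudocount of 10 (7.84% of the table), the length correction (2.33%) and the minimum mean (13 genes tested, 9.09%). It was 9 with centring (19.3%) and 7 with quantile normalization (10.6%). It was 0 with untransformed RPKM (3.05%), the groups compared (0.726%), no moderation (0.726%) and the wider adjustment (0.145%). With a library left out it was between 0 and 3 (from 0.290% to 20.5%). Between aged-repopulated and young control brains it was 1 with a pseudocount of 10 (4.79% of the table), untransformed RPKM (0.871%) and centring (8.85%). It was also 1 with the GC correction (7.73%), the minimum mean (13 genes tested, 6.45%) and no moderation (1.31%). It was 0 with quantile normalization (6.24%) and the wider adjustment (0.871%), and between 0 and 2 with a library left out (from 1.60% to 8.56%).

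Median log2 differences are given here for centring, the length correction, quantile normalization and the GC correction, in this order. With age the 20 genes were at -0.084, -0.083, -0.034 and -0.055, and the table at -0.012, -0.015, 0.012 and -0.010. As deposited these medians were 0.023 and 0.096. With repopulation the 20 genes were at 0.043, 0.039, 0.019 and 0.036, and the table at 0.0068, 0.0042, -0.0064 and 0.0025. Against young controls the 20 genes were at -0.040, -0.083, -0.038 and -0.037, and the table at -0.011, -0.0061, -0.0078 and -0.0096. The minimum mean kept 6 of the 20 genes, with medians of -0.042, 0.034 and -0.020 in the 3 comparisons, and the table was at 0.12, -0.059 and 0.047. With a library left out the median of the 20 genes lay between 0.014 and 0.034 with age, between -0.030 and -0.0038 with repopulation and between -0.0097 and 0.021 against young controls. On untransformed RPKM the median is in another unit and is not given.

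A log2 difference with age that was positive as deposited turned negative, in a pair of fits of which at least 1 made a call, for *Sec24b* with centring (-0.10), *Sec14l2* with centring (-0.012), *Sec11a* (-0.14), *Rab4a* (-0.10), *Sec14l2* (-0.029), *Trappc1* (-0.16), *Vps25* (-0.17), *Arf6* (-0.17) and *Rabl2* (-0.038) with the length correction, and *Rab4a* (-0.019), *Sec14l2* (-0.052) and *Arf6* (-0.15) with the GC correction. Without a call in either fit, *Rab28*, *Sec11a*, *Sec24c*, *Vps25* and *Arf6* also turned negative with centring (from -0.069 to -0.014). Against young controls *Trappc1* in aged-repopulated brains turned negative with the length correction (-0.15). The cause was not tested. Of the other single-gene values, 1028 kept their direction and their side of the threshold, 38 passed it and 68 fell below it, and 71 changed sign without a call. No paired analysis was possible because the labels share no replicate number between groups. The precision is set by 3 libraries a group, and depth cannot be read from the table.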
